A study of Mus musculus with 162 samples.

Results

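The trigeminal ganglion (TG), which holds the cell bodies of the sensory neurons of the face, and the spinal cord (SC), the central tissue that receives sensory input from the body, were compared in mice that had received vehicle only. The comparison held 10 of the 162 RNA-seq libraries of the series, chosen by their labels: 5 of TG and 5 of SC, each from adult male C57BL/6 mice of wild-type genotype that were treated with ethanol, received no injection and were taken on day 8. No library treated with MC903, the vitamin D analogue used in the study to induce itch and skin inflammation, was included. The ethanol was applied to the cheek for TG and to the back skin for SC, and the cord was thoracic, so tissue, treated site and mouse cannot be told apart. Of the TG libraries, 2 carry a second library name in their labels and are called A1 and A2, and the other 3 are called B1, B2 and B3. The SC libraries are called SC 1 to SC 5. Nothing in the labels states that the libraries came from separate mice, and the second library name of A2 carries a pair of numbers, so p-values measure only the spread between libraries.

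Sensory ganglia hold neuron cell bodies wrapped by satellite glia, with axons that are myelinated by Schwann cells, and have no local inhibitory interneurons. The spinal cord holds inhibitory and excitatory interneurons, motor neurons and the glia of the central nervous system: oligodendrocytes, which make central myelin, astrocytes, and microglia, its resident macrophages. Hox genes encode transcription factors that mark position along the body axis, and the anterior head lies outside the domain in which most of them are expressed.

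The libraries held between 25941277 and 38017376 counts assigned to genes, and the number of genes with more than 3 counts did not differ detectably between tissues (21481 ± 1096 (SD, n = 5) in TG and 21836 ± 928 in SC, two-sided exact permutation test, p = 0.571, adjusted over 4 measures p = 0.659). Mitochondrially encoded transcripts took 2.91% ± 0.687 of counts in TG and 5.56% ± 0.413 in SC, with no overlap between libraries (exact permutation p = 0.00794, the smallest that 5 against 5 allows, adjusted p = 0.0159). The 50 most abundant genes took 12.4% ± 0.707 of counts in TG and 17.004% ± 0.999 in SC (exact permutation p = 0.00794, adjusted p = 0.0159). On the first 2 principal components, which held 78.04% and 8.92% of the variance, tissue was separated by the first, and B2 stood apart from the other TG libraries on the second. SC 1 had the lowest scaling factor, 0.913 against 1.004 to 1.05 in the other cord libraries. Counts of calls over all genes and over the lists without both of these libraries are given with the totals.

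Of 25788 genes tested, 2647 (10.3%) were called higher in TG and 2888 (11.2%) higher in SC, where a call requires an adjusted p below 0.05 in edgeR's quasi-likelihood test and a difference of at least 2-fold. These made 5535 genes, 21.5% of those tested. Every TG library lay above every SC library for 3953 genes (15.3%), and every SC library above every TG library for 4177 (16.2%). Without B2 and SC 1, 2688 and 3370 genes were called. With the A libraries of TG alone the counts were 2677 and 2822, and with the B libraries alone they were 2331 and 3068. The A and B libraries of TG differed by 2 genes called of 23668 tested (0.00845%), with 3644 at an unadjusted p below 0.05 in the quasi-likelihood test. DESeq2 called 300 genes there, and leaving out B2 raised the count of the quasi-likelihood test from 2 to 154, while it was 1 without A2 and 0 without A1, B1 or B3. Differences of at least 32-fold were called for 345 genes higher in TG and 353 higher in SC. The median log2 fold change of all tested genes was 0.03, where positive values are higher in TG. Fewer cells of a type and less RNA per cell cannot be told apart in these bulk libraries. Across 36 gene lists, 406 of 415 members were tested and 298 were called, 171 of them higher in SC and the others higher in TG. Without B2 and SC 1 there were 308 calls among the members. The counts of 13 lists then changed, 12 of them by 1 gene, while neutrophil genes went from 1 to 5 higher in SC. The 1 gene more was among neuropeptides, ionotropic glutamate receptors, ependymal, blood-brain barrier and bone genes in SC, and among pan-neuronal, GABA and glycine receptor, resident macrophage and keratinocyte genes in TG. The 1 gene fewer was among lymphocyte and fibroblast genes in TG and among central matrix genes in SC.

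**Figure D1:**
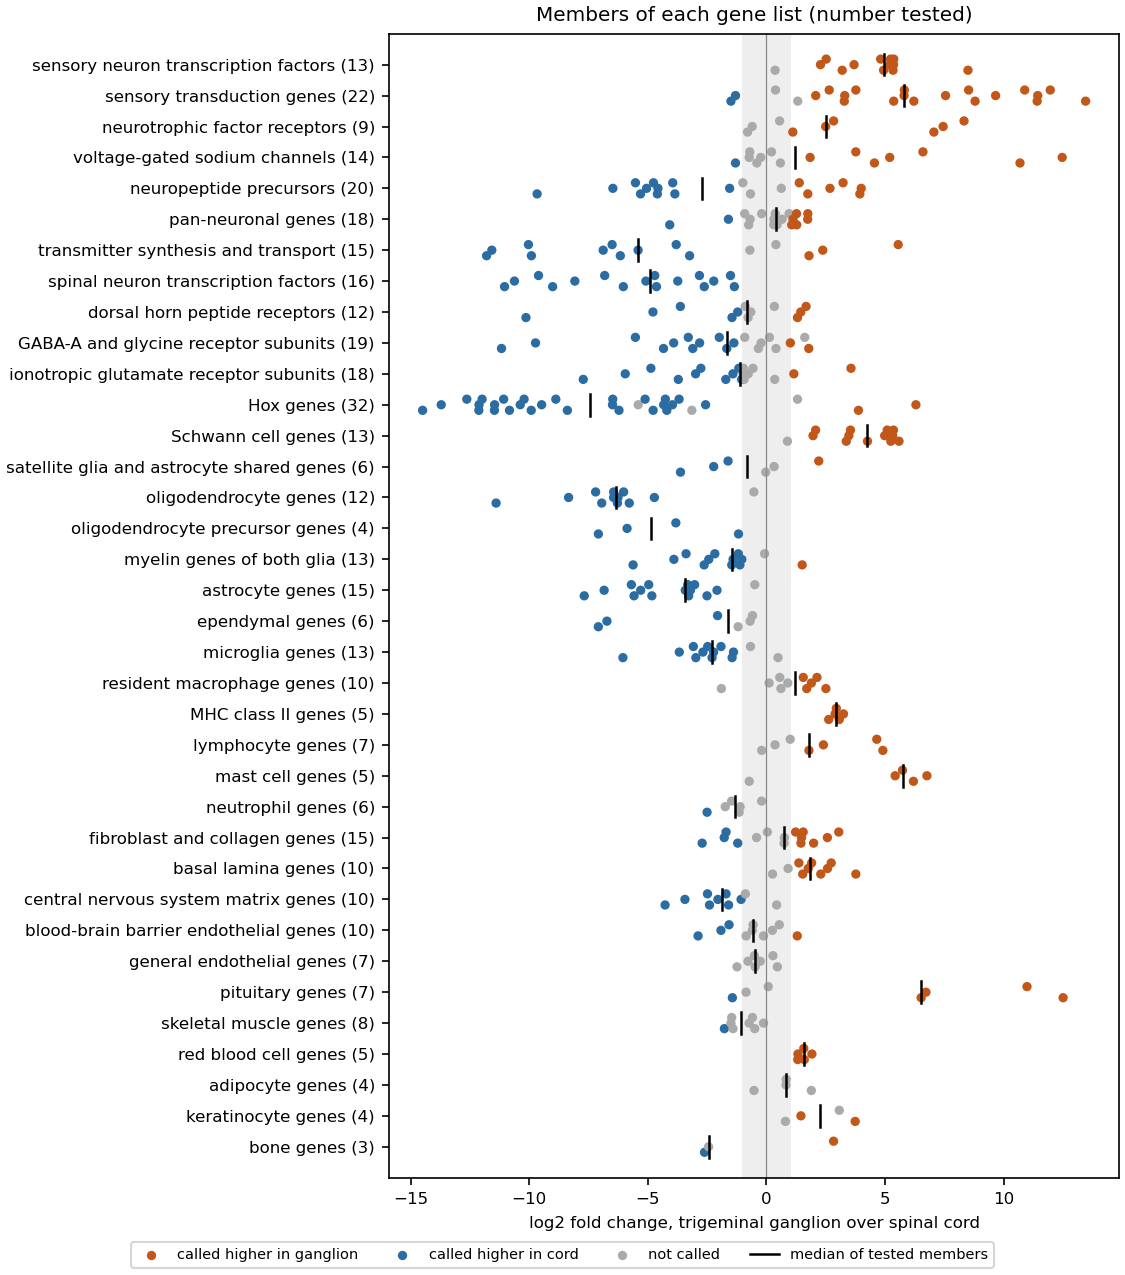
Log2 fold change of TG over SC for the tested members of each gene list, 1 point per gene, with the median of each list as a black line and differences under 2-fold shaded. Sensory neuron and Schwann cell genes lay to the right, and Hox, oligodendrocyte, astrocyte and spinal transcription factor genes to the left.

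Promoters of 3 genes that mark the contrast are shown first, because these genes were at 0 in every library of one tissue (Mrgprd in SC, Hoxb8 in TG) or below 10 cpm in every TG library (Mog). They are the 250 bases before the start of Mrgprd (a receptor of nociceptors), Hoxb8 (a Hox gene of the trunk) and Mog (a protein of central myelin), from RefSeq on GRCm38.p6, with CG dinucleotides in capitals. Among the promoters of 27025 genes the median number of CG was 6, counted on 1 strand since CG reads the same on both.
Mrgprd (chromosome 7, chr7:145314585-145314834, plus strand): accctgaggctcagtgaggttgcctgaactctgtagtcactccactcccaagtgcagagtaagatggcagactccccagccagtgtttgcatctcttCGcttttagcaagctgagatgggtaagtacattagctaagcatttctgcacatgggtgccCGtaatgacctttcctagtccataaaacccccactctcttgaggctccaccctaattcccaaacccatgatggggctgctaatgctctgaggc
Hoxb8 (chromosome 11, chr11:96281655-96281904, plus strand): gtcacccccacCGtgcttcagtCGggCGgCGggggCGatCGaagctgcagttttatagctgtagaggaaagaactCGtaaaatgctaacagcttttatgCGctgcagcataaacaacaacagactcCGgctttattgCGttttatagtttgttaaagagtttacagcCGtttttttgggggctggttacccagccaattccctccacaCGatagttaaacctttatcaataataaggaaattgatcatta
Mog (chromosome 17, chr17:37023399-37023648, minus strand): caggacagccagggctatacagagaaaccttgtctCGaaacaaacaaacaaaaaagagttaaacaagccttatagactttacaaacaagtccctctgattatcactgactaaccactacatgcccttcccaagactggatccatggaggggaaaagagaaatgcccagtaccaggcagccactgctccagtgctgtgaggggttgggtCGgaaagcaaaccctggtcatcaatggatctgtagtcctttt
The Hoxb8 window held 12 CG, and 33.8% of promoters held as many or more. Those of Mrgprd and Mog held 2 each, which 80.6% of promoters reached.

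Transcription factors of sensory neurons were higher in TG for 12 of 13 tested members, with a median log2 fold change of 4.94 (4.82 with the gene that was at 0 in SC set to its lower bound). Pou4f1 (Brn3a), which sets sensory neuron identity, was at 131.7, 128.04, 135, 121.2 and 140.0 cpm (counts scaled to 1e6 per library after TMM normalization) in A1, A2, B1, B2 and B3 and at 3.63, 4.87, 4.92, 6.16 and 3.77 cpm in SC 1 to SC 5. Every TG library was far above every SC library (log2 fold change 4.82 ± 0.15 (SE), adjusted p = 1.03e-11). Isl1, its partner in sensory neuron development, was at 132.8, 123.005, 145, 109 and 137 cpm in TG and 4.31, 3.06, 2.96, 2.71 and 2.69 cpm in SC, again without overlap (log2 fold change 5.36 ± 0.15 (SE), adjusted p = 6.33e-12). Runx1, a factor of the nociceptor lineage, was at 69.4, 77.8, 82.2, 81.1 and 81.7 cpm in TG and 3.09, 2.08, 2.10, 1.82 and 1.61 cpm in SC (log2 fold change 5.20 ± 0.16 (SE), adjusted p = 1.6e-11). An antisense gene overlaps Runx1 and the strand setting of the counting is not given in the sources used here. Neurod1 was the member that was not called (0.37, adjusted p = 0.342).

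Of 22 sensory transduction genes, 18 were higher in TG and 2 higher in SC, with a median log2 fold change of 5.81. Trpv1, the heat and capsaicin channel, was at 80.01, 74.9, 81.6, 80.8 and 73.96 cpm in TG and 0.354, 0.184, 0.0688, 0.223 and 0.0527 cpm in SC (log2 fold change 8.80 ± 0.25 (SE), adjusted p = 6.42e-12). Trpm8, the cold channel, was at 278, 255, 313, 259 and 252 cpm in TG and below 1 cpm in each SC library (log2 fold change 9.66 ± 0.29 (SE), adjusted p = 9.77e-12). Piezo2, the mechanically gated channel of touch neurons, was at 837, 835, 649.9, 582 and 671 cpm in TG and 9.42, 11.98, 14.9, 13.8 and 13.4 cpm in SC (log2 fold change 5.81 ± 0.17 (SE), adjusted p = 6.42e-12). The tissues did not overlap for these 3 channels. Mrgprd was at 52.2, 47.8, 39.0, 32.8 and 48.4 cpm in TG and had 0 counts in all 5 SC libraries, which makes it at least 457-fold higher in TG against a floor of 3 counts per library (adjusted p = 1.02e-09). The itch receptors Mrgpra3 and Mrgprx1 also had 0 counts in all SC libraries, at least 77.1-fold and 111-fold below TG.

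Il31ra, the receptor for the itch cytokine IL-31, was at 29.7, 30.4, 23.4, 19.3 and 23.8 cpm in TG and 0.0321, 3.06, 3.58, 2.86 and 3.30 cpm in SC (log2 fold change 3.30 ± 0.50 (SE), adjusted p = 0.000102). SC 1 was nearly empty of it while the other cord libraries held a low level. Its co-receptor Osmr was at 32.5, 34.3, 26.7, 19.6 and 21.6 cpm in TG and 4.92, 5.61, 7.40, 6.38 and 7.57 cpm in SC (log2 fold change 2.08 ± 0.18 (SE), adjusted p = 4.93e-07). Trpm3, a heat-gated channel, went the other way at 47.2, 46.7, 35.2, 36.4 and 36.1 cpm in TG and 88.1, 109, 87.6, 107 and 106 cpm in SC (log2 fold change -1.30 ± 0.12 (SE), adjusted p = 5.34e-07), and antisense genes overlap it. The histamine receptor Hrh1 was the other member higher in SC (log2 fold change -1.497, adjusted p = 4.61e-05). Prph, an intermediate filament of peripheral neurons, was at 936, 966, 904, 886 and 980.3 cpm in TG and 59.1, 72.9, 76.7, 70.6 and 63.001 cpm in SC (log2 fold change 3.77 ± 0.10 (SE), adjusted p = 5.09e-12).

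Receptors for neurotrophic factors were higher in TG for 6 of 9 members and higher in SC for 0, with a median of 2.50. The BDNF receptor Ntrk2 was not called (log2 fold change -0.60, adjusted p = 8.46e-05). Among 14 voltage-gated sodium channel genes, 7 were higher in TG and 1 higher in SC. Scn10a (Nav1.8), the tetrodotoxin-resistant channel of nociceptors, was at 897, 969.8, 664, 556 and 631 cpm in TG and 0.386, 0.0306, 0.172, 0 and 0.0527 cpm in SC (log2 fold change 12.47 ± 0.40 (SE), adjusted p = 2.13e-11). Scn2a, a channel of central axons, was the member higher in SC, at 43.01, 45.3, 31.6, 44.2 and 46.7 cpm in TG and 79.5, 106, 101, 120.4 and 114.7 cpm in SC (log2 fold change -1.31 ± 0.13 (SE), adjusted p = 1.77e-06). Scn8a overlapped between tissues and was not called (log2 fold change 0.21, adjusted p = 0.257).

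Of 20 neuropeptide precursor genes, 6 were higher in TG and 11 higher in SC. Calca, which encodes CGRP, was at 469.8, 467, 603, 524 and 522 cpm in TG and 92.1, 48.2, 53.3, 46.97 and 34.9 cpm in SC (log2 fold change 3.23 ± 0.22 (SE), adjusted p = 2.66e-08). Tac1, which encodes substance P, was at 293, 262, 244, 265 and 223 cpm in TG and 73.1, 30.8, 31.9, 33.2 and 32.2 cpm in SC (log2 fold change 2.68 ± 0.23 (SE), adjusted p = 3.04e-07). In the cord, SC 1 held more of both than the other 4 libraries. Nppb, a peptide of itch neurons, was at 1.58, 1.72, 3.05, 0.327 and 1.03 cpm in TG and 0, 0.337, 0.0344, 0 and 0.0791 cpm in SC, and the tissues overlapped through B2 (log2 fold change 3.996 ± 0.87 (SE), adjusted p = 0.00205). Grp, the precursor of gastrin-releasing peptide, was at 0.0930, 0.159, 0.111, 0 and 0 cpm in TG and 9.97, 4.87, 6.54, 7.31 and 5.90 cpm in SC (log2 fold change -6.48 ± 0.52 (SE), adjusted p = 1.69e-07). Penk, the enkephalin precursor, was at 6.14, 2.86, 1.15, 0.238 and 0.355 cpm in TG and 76.96, 107, 102, 106 and 109 cpm in SC (log2 fold change -5.52 ± 0.59 (SE), adjusted p = 3.65e-06). Grp and Penk did not overlap between tissues. Of 12 receptors of dorsal horn peptides, 3 were higher in TG and 5 higher in SC. The neuromedin U receptor Nmur2 had 0 counts in all TG libraries and was at 4.50, 3.64, 4.82, 4.60 and 4.51 cpm in SC, at least 46.96-fold higher there (adjusted p = 1.01e-07). Grpr, the receptor for gastrin-releasing peptide, overlapped between tissues at 0.248, 0.557, 0.371, 0.208 and 0.484 cpm in TG and 0.0321, 0.674, 0.585, 0.556 and 1.11 cpm in SC (log2 fold change -0.66 ± 0.65 (SE), adjusted p = 0.459). SC 1 was the lowest cord library for it. For Grpr the tissues did not overlap in the PBS-injected and anti-Gr1-injected vehicle libraries, compared below. With PBS it was at 0.707 to 1.07 cpm in TG and 2.18 and 2.52 cpm in SC. With anti-Gr1 it was at 0.242 to 0.913 cpm in TG and 1.52 to 2.24 cpm in SC.

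Genes of transmitter synthesis and transport were higher in SC for 10 of 15 members and higher in TG for 3, with a median log2 fold change of -5.41. Slc32a1, the vesicular transporter of GABA and glycine, was at 110.1, 108, 99.6, 102 and 93.9 cpm in SC, and only B1 held any counts of it in TG (0, 0, 0.149, 0 and 0 cpm, adjusted p = 7.4e-12). Slc6a5, the glycine transporter of inhibitory terminals, was at 0.124, 0.239, 1.89, 0.119 and 0.129 cpm in TG and 526, 466, 481, 453 and 499.6 cpm in SC (log2 fold change -10.03 ± 0.53 (SE), adjusted p = 2.31e-09). B1 was the highest TG library for both. Chat, which makes acetylcholine in motor neurons, was at 29.1, 21.4, 21.2, 18.4 and 18.1 cpm in SC and at 0.0310, 0.0265, 0.0371, 0 and 0 cpm in TG (adjusted p = 3.22e-11). Slc17a7, a vesicular glutamate transporter, was higher in TG at 174, 151, 99.4, 71.6 and 117.3 cpm against 2.60, 2.45, 1.997, 2.89 and 3.06 cpm in SC (log2 fold change 5.56 ± 0.25 (SE), adjusted p = 3.89e-10). Slc17a6, the related transporter, was at 327, 296, 282, 272 and 284 cpm in TG and 233, 214, 221, 216 and 225 cpm in SC, and stayed below 2-fold (log2 fold change 0.40 ± 0.08 (SE), adjusted p = 0.000974).

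All 16 spinal neuron transcription factors were called higher in SC, with a median log2 fold change of -4.90 (-4.08 with the members at 0 in TG at their bounds). Phox2a was called at low counts, its libraries overlapped and no fold is given for it. Of the 16 factors, 14 were called higher in SC with the A libraries of TG alone and 15 with the B libraries alone. In the PBS and anti-Gr1 libraries, compared below, 13 and 16 were called higher in SC. Lbx1, a factor of dorsal horn interneurons, was at 29.9, 10.5, 13.1, 12.7 and 13.7 cpm in SC and 0.0310, 0, 0, 0 and 0 cpm in TG (adjusted p = 2.16e-09). Zic1, a factor of the dorsal neural tube, was at 7.32, 10.02, 3.97, 9.64 and 0.742 cpm in TG and 35.7, 45.2, 52.6, 44.1 and 48.3 cpm in SC (log2 fold change -2.82 ± 0.44 (SE), adjusted p = 0.000125), and B3 was the lowest TG library. Receptor subunits for GABA and glycine were higher in SC for 11 of 19 tested members and higher in TG for 2. The glycine receptor subunit Glra1 was at 0.0620, 0.106, 0.594, 0 and 0 cpm in TG and 91.4, 136, 101, 140.5 and 135 cpm in SC (log2 fold change -9.74 ± 0.45 (SE), adjusted p = 6.67e-10). Ionotropic glutamate receptor subunits were higher in SC for 10 of 18 members and higher in TG for 2. Grin2a, an NMDA receptor subunit, was at 0.0310, 0.159, 0.929, 1.07 and 0 cpm in TG and 85.6, 90.2, 86.9, 94.5 and 96.5 cpm in SC (log2 fold change -7.72 ± 0.51 (SE), adjusted p = 2.21e-08).

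Pan-neuronal genes were mixed, with 6 of 18 higher in TG, 2 higher in SC and a median log2 fold change of 0.41. Tubb3, a neuronal tubulin, was at 862, 798, 729.9, 482 and 689 cpm in TG and 215, 218, 224, 204 and 201 cpm in SC (log2 fold change 1.75 ± 0.13 (SE), adjusted p = 1.06e-07). Map2, a protein of dendrites, was at 351, 321, 278, 353 and 363 cpm in TG and 1149.7, 945, 946, 1026 and 995 cpm in SC (log2 fold change -1.60 ± 0.10 (SE), adjusted p = 1.14e-08).

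Of 39 Hox genes, 32 passed the filter on low counts, 27 of these were called higher in SC and 2 higher in TG, and the other 7 had too few counts in both tissues to be tested. The median log2 fold change was -7.44, and -5.71 with the genes at 0 in TG at their bounds. Among the genes called higher in SC, 11 had 0 counts in every TG library. Hoxb8 (ENSMUSG00000056648, chr11:96281905-96285315, GRCm38) was at 94.8, 90.8, 92.2, 86.8 and 88.3 cpm in SC and at 0 in TG, at least 964-fold higher in SC (adjusted p = 2.02e-11). Hoxc8 was at 0, 0, 0.111, 0.149 and 0.129 cpm in TG and 175, 171, 196, 154 and 152 cpm in SC (log2 fold change -11.08 ± 0.30 (SE), adjusted p = 5.09e-12). Per kb of exon, Hoxc8 in SC was at 59.95 ± 6.33 cpm (SD, n = 5), Hoxb8 at 34.4 ± 1.19 and Hoxa9 at 9.42 ± 1.88.

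Hoxd1 went against most members of its cluster. It was at 24.3, 23.6, 21.2, 17.7 and 24.5 cpm in TG and 2.38, 1.07, 0.929, 1.26 and 1.87 cpm in SC, with every TG library above every SC library (log2 fold change 3.88 ± 0.24 (SE), adjusted p = 1.12e-08). The second gene called higher in TG was Hoxc13, a gene of hair and nail, at 0.806, 0.610, 2.60, 0.0297 and 0 cpm in TG, where B2 and B3 were at or near 0. The same B2 and B3 libraries had the lowest summed keratinocyte genes of the TG group, given below, and the part of these in the Hoxc13 result was not tested. In the PBS-injected and anti-Gr1-injected vehicle libraries, compared below, Hoxc13 was at 0 cpm in every TG library, so its call did not recur there. Antisense genes overlap 10 of the 39 Hox genes, among them Hoxa7 and Hoxb5, and without a stated strand setting their reads cannot be told from those of the partner.

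**Figure D2:**
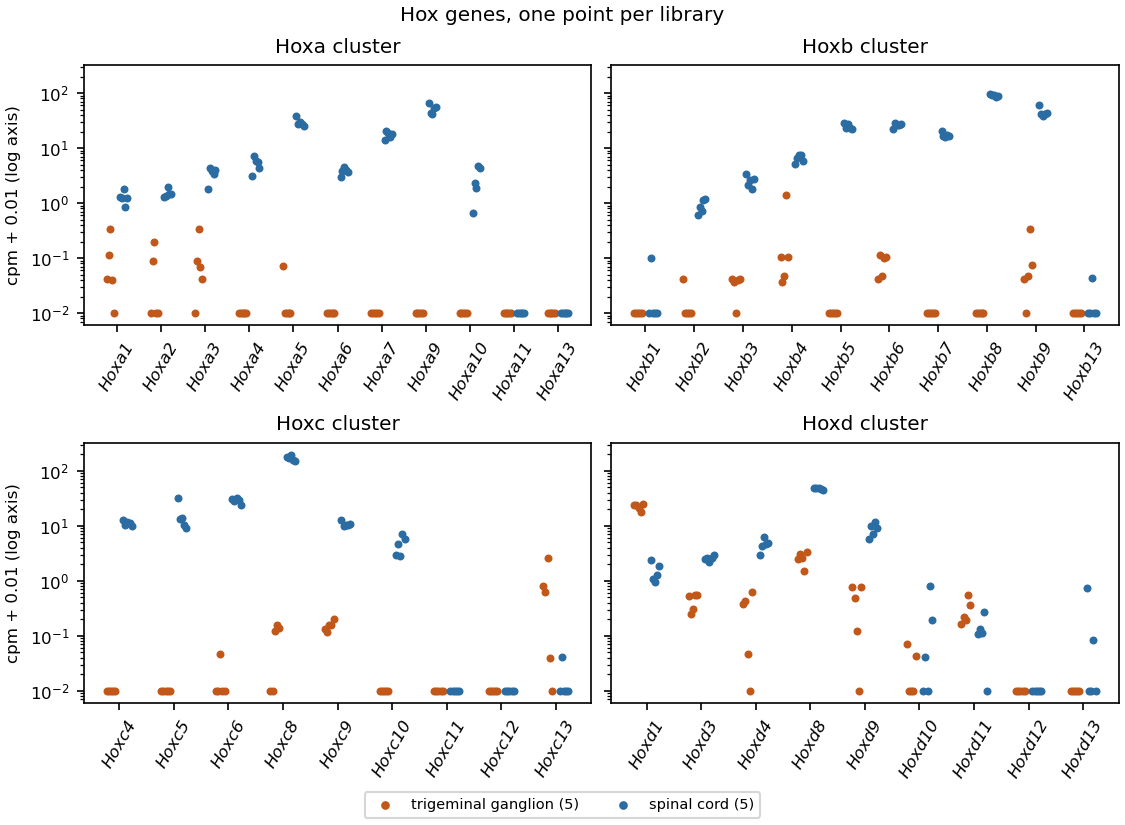
Level of each Hox gene in each library, in cpm with 0.01 added so that 0 can be drawn on the log axis, by cluster and in order of gene number. SC points lie above TG points for the 27 genes called higher in SC, and Hoxd1 and, with overlap, Hoxc13 show the reverse.

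Genes of myelinating Schwann cells were higher in TG for 12 of 13 members, with a median log2 fold change of 4.26. Pmp22, a peripheral myelin protein, was at 1451, 1819, 3865, 5938 and 3264 cpm in TG and 254, 278, 321, 289.7 and 259 cpm in SC (log2 fold change 3.54 ± 0.32 (SE), adjusted p = 6.45e-07). It was lowest in A1 and highest in B2. Summed over the list, Schwann cell genes came to 3715, 4801, 9412, 15177 and 8204 cpm in A1, A2, B1, B2 and B3 and to 389, 501, 548, 542 and 459 cpm in SC 1 to SC 5, so TG libraries differed among themselves while none overlapped the cord.

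Oligodendrocyte genes were higher in SC for 11 of 12 members, with a median of -6.36, and oligodendrocyte precursor genes for 4 of 4. Mog was at 2.64, 8.88, 2.56, 0.952 and 0.0645 cpm in TG and 428, 385, 371, 351 and 367 cpm in SC (log2 fold change -6.95 ± 0.66 (SE), adjusted p = 9.29e-07). Mobp, another central myelin protein, was at 48.1, 111, 40.7, 17.2 and 1.39 cpm in TG and 4752, 3101, 3144, 3063 and 2965 cpm in SC (log2 fold change -6.28 ± 0.79 (SE), adjusted p = 1.67e-05). Within TG, A2 held the most of both and B3 the least. Of 13 myelin genes used by both kinds of glia, 11 were higher in SC and 1, the neuregulin receptor Erbb3, higher in TG. Sox10, a transcription factor of both glia, was at 45.5, 52.02, 106, 106 and 63.1 cpm in TG and 84.1, 72.3, 79.2, 80.5 and 77.5 cpm in SC and was not called (log2 fold change -0.08 ± 0.21 (SE), adjusted p = 0.8).

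Astrocyte genes were higher in SC for 14 of 15 members, with a median of -3.42. Gfap, the astrocyte intermediate filament, was at 34.9, 70.1, 52.04, 32.1 and 0.419 cpm in TG and 1269.6, 1542, 1673, 1485 and 1516 cpm in SC (log2 fold change -5.30 ± 0.73 (SE), adjusted p = 4.34e-05). B3 was nearly empty of it, and the other TG libraries held a low level. Slc1a2, a glutamate transporter, was at 13.95, 21.6, 23.4, 64.7 and 7.93 cpm in TG and 3310.2, 2998, 2777, 3015 and 3024 cpm in SC (log2 fold change -6.84 ± 0.50 (SE), adjusted p = 6.8e-08). Of 6 genes shared by satellite glia and astrocytes, 1 was higher in TG and 3 higher in SC. The one higher in TG was Fabp7, a lipid-binding protein, at 87.5, 114.7, 200.1, 181 and 224 cpm in TG and 17.04, 43.2, 42.2, 34.5 and 38.1 cpm in SC (log2 fold change 2.21 ± 0.28 (SE), adjusted p = 1.85e-05). Of 6 ependymal genes, 3 were higher in SC and 0 higher in TG.

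**Figure D3:**
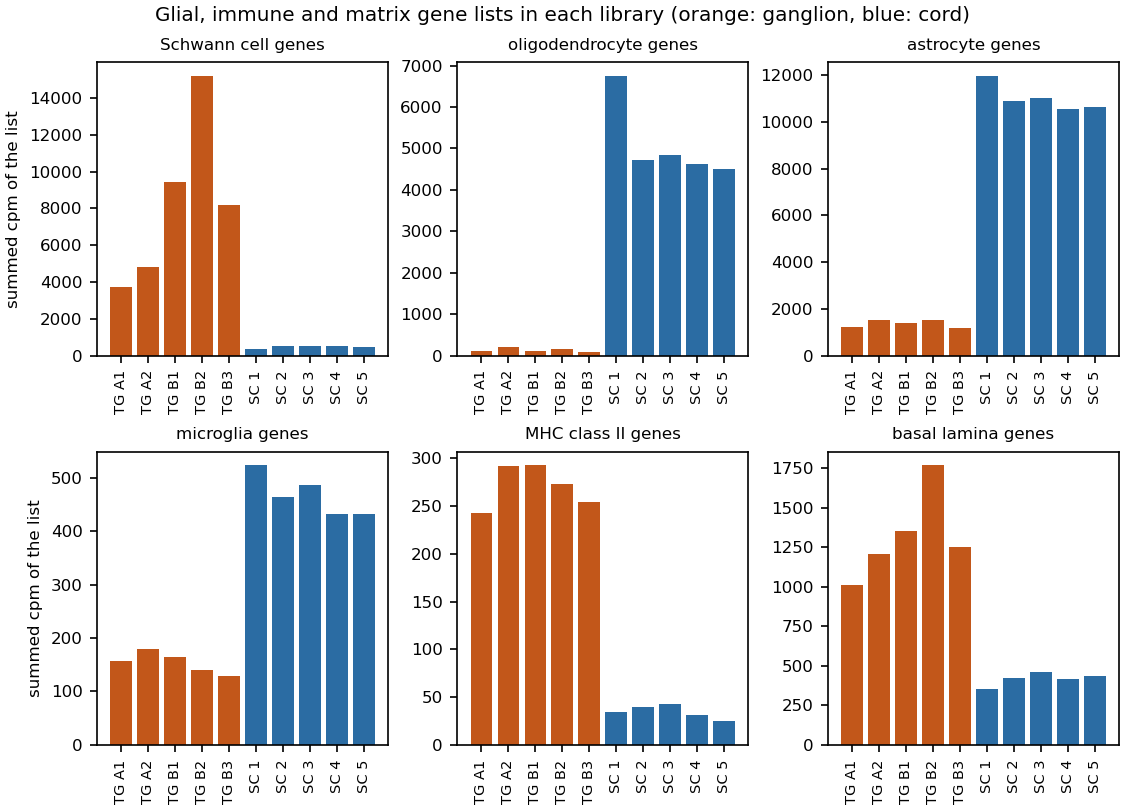
Summed cpm of 6 gene lists in each library, 1 bar per library with axes from 0. Schwann cell, MHC class II and basal lamina genes are higher in all TG libraries, and oligodendrocyte, astrocyte and microglia genes in all SC libraries.

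Microglia genes were higher in SC for 11 of 13 members, with a median of -2.29. Tmem119, a microglial surface protein, was at 1.64, 1.43, 0.371, 1.04 and 0.452 cpm in TG and 12.2, 13.05, 14.8, 12.5 and 11.7 cpm in SC (log2 fold change -3.67 ± 0.34 (SE), adjusted p = 6.59e-07). Sall1, a transcription factor of microglia, was at 0.620, 2.33, 1.89, 0.327 and 0.0968 cpm in TG and 78.7, 64.3, 78.9, 67.7 and 63.1 cpm in SC (log2 fold change -6.05 ± 0.48 (SE), adjusted p = 1.68e-07). Genes of other resident macrophages were higher in TG for 5 of 10 members and higher in SC for 0. The mannose receptor Mrc1 was at 24.03, 21.2, 14.6, 25.6 and 12.5 cpm in TG and 3.15, 7.90, 8.30, 4.97 and 5.83 cpm in SC (log2 fold change 1.70 ± 0.27 (SE), adjusted p = 0.00014). All 5 MHC class II genes, which present antigen, were higher in TG, with a median of 2.95. H2-Aa was at 68.3, 92.8, 82.4, 91.7 and 82.2 cpm in TG and 10.3, 9.62, 13.3, 9.76 and 6.77 cpm in SC (log2 fold change 3.07 ± 0.16 (SE), adjusted p = 2.03e-09), without overlap. Of 7 lymphocyte genes, 4 were higher in TG, and of 5 mast cell genes, 4, all at low levels. The summed mast cell genes were at 8.001, 9.07, 2.64, 6.87 and 2.03 cpm in TG and 0.161, 1.59, 1.205, 1.74 and 1.69 cpm in SC.

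The matrix differed as well. Basal lamina genes were higher in TG for 8 of 10 members and higher in SC for 0. The laminin chain Lamb1 was at 143, 166, 207, 244 and 184 cpm in TG and 11.5, 13.998, 14.8, 14.6 and 14.3 cpm in SC (log2 fold change 3.77 ± 0.15 (SE), adjusted p = 1.16e-10). Genes of the central nervous system matrix were higher in SC for 8 of 10 members and higher in TG for 0. Aggrecan (Acan), a proteoglycan of perineuronal nets, was at 2.95, 2.60, 2.08, 1.25 and 0.677 cpm in TG and 40.9, 35.5, 34.9, 37.2 and 37.1 cpm in SC (log2 fold change -4.27 ± 0.29 (SE), adjusted p = 2.96e-08). Fibroblast and collagen genes were split, with 7 of 15 higher in TG and 4 higher in SC. Decorin (Dcn) was at 586, 602, 707, 826 and 292 cpm in TG and 77.1, 108, 146, 93.4 and 83.03 cpm in SC (log2 fold change 2.57 ± 0.25 (SE), adjusted p = 1.23e-06). Among 10 endothelial genes of the blood-brain barrier, 3 were higher in SC and 1 higher in TG. Slc2a1, its glucose transporter, was at 144, 170.0, 158, 111 and 109 cpm in TG and 681, 299, 388, 340.2 and 356 cpm in SC (log2 fold change -1.58 ± 0.21 (SE), adjusted p = 3.1e-05), with SC 1 the highest.

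Markers of neighbouring tissues and blood varied between libraries of one tissue. Keratinocyte genes summed to 44.7, 35.8, 44.4, 12.2 and 4.26 cpm in TG and 2.25, 5.42, 4.68, 12.3 and 7.20 cpm in SC, and 2 of 4 were called higher in TG, and 4 of 4 without B3. Pituitary genes summed to 20.4, 146, 19.6, 29.7 and 14.1 cpm in TG and 33.98, 32.3, 37.0, 30.6 and 28.7 cpm in SC, so the sums in A1, B1 and B3 lay below every SC library. Of 7 tested, 4 were called higher in TG and 1, the transcription factor Pou1f1, higher in SC. Growth hormone (Gh) was at 11.04, 96.3, 4.87, 1.16 and 0.323 cpm in TG and at 0 counts in all SC libraries, so A2 held most of it, and 2 pituitary genes were called higher in TG without A2, and likewise without SC 1 or without SC 5. In PBS-injected vehicle cord, compared below, Gh and the prolactin gene Prl were at 0 while Pou1f1 was at 106 and 93.3 cpm. Pou1f1 thus had the highest level of the pituitary genes in that cord. Whether the pituitary sum reflects pituitary tissue in cord was not tested. Skeletal muscle genes summed to 69.9, 38.6, 47.9, 10.3 and 12.8 cpm in TG and 30.2, 124.7, 45.9, 29.1 and 70.4 cpm in SC, with 1 of 8 called higher in SC, and 0 without SC 2. Red blood cell genes were higher in TG for 5 of 5 members, and Hba-a1, a hemoglobin gene with a near-identical copy, was at 648, 549.8, 575, 617 and 381 cpm in TG and 222, 199, 153, 216 and 140.0 cpm in SC (log2 fold change 1.58 ± 0.16 (SE), adjusted p = 2.34e-06). Neutrophil genes summed to 2.85, 4.56, 1.93, 25.1 and 1.87 cpm in TG and 8.58, 23.7, 10.4, 42.8 and 11.4 cpm in SC, with 1 of 6 called higher in SC, and 5 of 6 without B2. The part of these tissues in the results above was not tested.

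**Figure D4:**
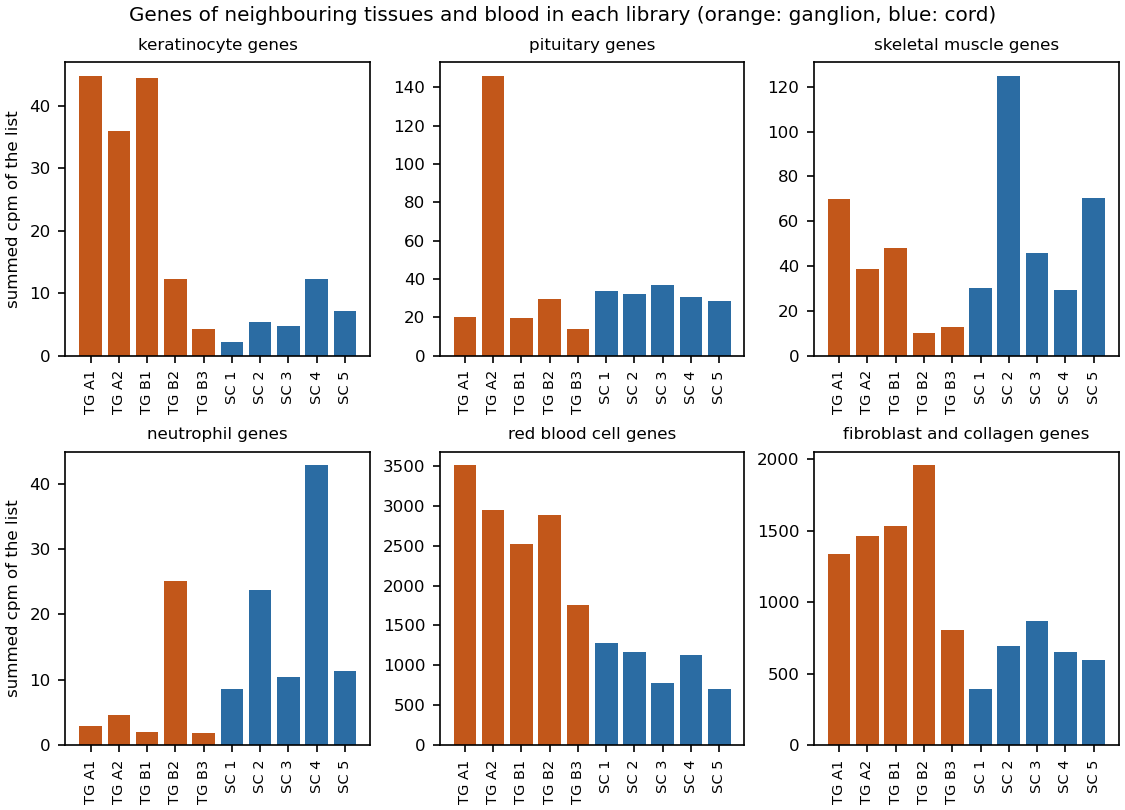
Summed cpm of gene lists for neighbouring tissues and blood in each library, 1 bar per library with axes from 0. A2 stands out for pituitary genes, B2 for neutrophil genes among TG, and A1, A2 and B1 for keratinocyte genes.

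By the rule of the largest differences, 15 genes were named in each direction. In TG these included the nociceptor channel Kcnk18, the actin-binding protein Avil, the channel regulator Pirt and the transcription factors Prdm12 and Tlx2. Pirt was at 665 ± 21.2 cpm (SD, n = 5) in TG and 0.867 ± 0.258 cpm in SC (log2 fold change 9.57 ± 0.17 (SE), adjusted p = 4.79e-13). Tlx2 had 0 counts in all SC libraries and was at least 264-fold higher in TG. Gm13425 overlaps Prdm12 on the other strand, and without a stated strand setting their reads cannot be told apart. In SC, 10 of the 15 were Hox genes, and the others were Slc32a1, Slc6a5, Slc18a3, Lbx1 and Opalin. Per kb of exon, the highest protein-coding nuclear genes in TG included Pmp22 at 1388 ± 762 cpm (SD, n = 5). Those in SC included Mbp at 1903 ± 143 cpm and the ferritin chain Fth1 at 1871 ± 240.1.

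The same comparison was made in vehicle-treated mice that had received PBS (3 TG and 2 SC libraries) or the anti-Gr1 antibody (4 TG and 6 SC libraries), none of which entered the comparison above. In the PBS libraries, 2704 of 24333 genes (11.1%) were called higher in TG and 3978 (16.3%) higher in SC, or 27.5% in either direction. In the anti-Gr1 libraries, 3009 of 26370 (11.4%) and 4979 (18.9%) were called, or 30.3% in either direction. Genes called in both the uninjected and the PBS libraries made up 67.4% of the uninjected TG calls and 66.01% of the PBS ones, and 74.9% and 54.4% of the SC calls. For anti-Gr1 the shares were 65.02% and 57.2% of TG calls and 79.95% and 46.4% of SC calls. Calls in the opposite direction numbered 18 with PBS and 32 with anti-Gr1. Log2 fold changes in uninjected, PBS and anti-Gr1 libraries were 4.82, 4.66 and 4.64 for Pou4f1, 3.54, 3.43 and 3.49 for Pmp22, and 3.88, 4.61 and 4.35 for Hoxd1. Mog was at -6.95, -4.97 and -4.55, and the medians of the oligodendrocyte list were -6.36, -4.45 and -4.61. The medians of the keratinocyte list were 2.26, -0.86 and 0.05, over 4, 2 and 4 tested members, so the PBS median rests on fewer genes. Hox genes were called higher in SC for 30 of 31 tested with PBS and 28 of 31 with anti-Gr1. Keratinocyte genes were called higher in TG for 0 members in either and higher in SC for 1 member in each. All 8 skeletal muscle genes were called higher in SC in both.

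**Figure D5:**
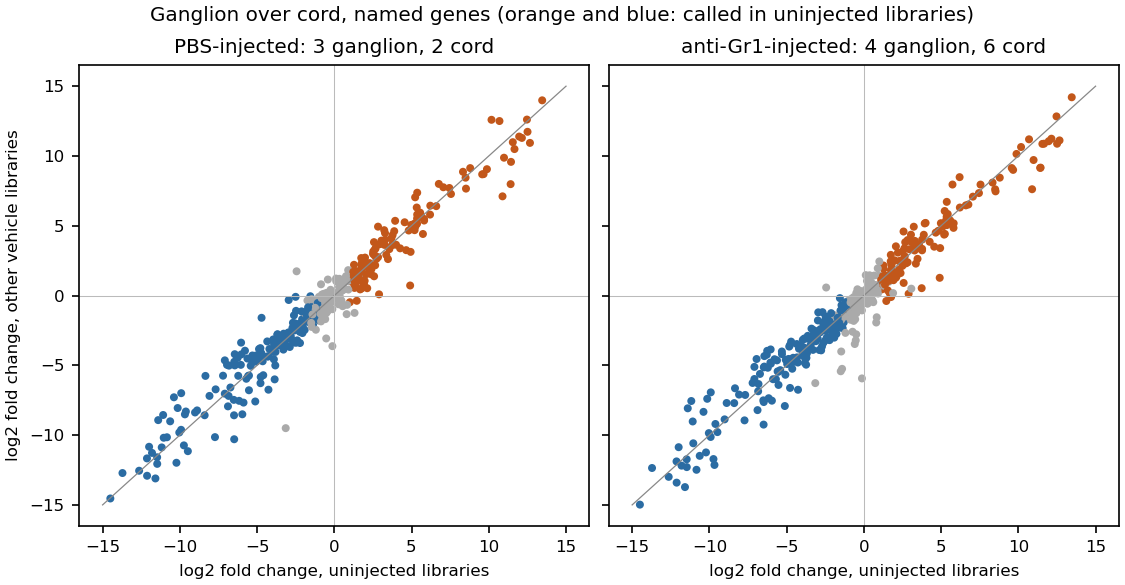
Log2 fold change of TG over SC for the named genes in uninjected libraries (horizontal axis) against PBS-injected or anti-Gr1-injected vehicle libraries (vertical axis), 1 point per gene, with the line of equal values. Points away from the line include Mog, at -6.95 in uninjected, -4.97 in PBS and -4.55 in anti-Gr1 libraries.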

How the data were processed

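Poly(A) RNA-seq reads were mapped by the authors to mm10 with Bowtie2 and TopHat, and counted per gene with htseq-count. The deposited values are raw counts, and the annotation release and strand setting are not given in the sources used here. Reads outside genes (9.42% to 13.3% in the 10 libraries) or ambiguous were left out. Of 46078 gene IDs, 45229 matched GENCODE M21 (GRCm38). Genes with at least 10 counts in total were tested in edgeR 4.0.16 (R 4.3.3) with TMM normalization, a model of tissue alone, the quasi-likelihood test and Benjamini-Hochberg adjustment. The test was checked on simulated counts. A fold against a tissue at 0 used a floor of 3 counts per library, which covers counting error only. Per kb levels divided cpm by exon length. Named genes were all list members, the 15 called genes per direction with the largest change, no overlap between libraries and at least 10 cpm in the higher tissue, and the 10 highest per kb. The libraries, lists and tests were chosen with earlier results of these data known. The labels do not state that replicate numbers pair the tissues, and the model did not pair them. A few list members are not reported here.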

Additional observations from a re-analysis of the deposited data

Results flagged for a closer look

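Among 211 groups of 5 libraries (values of single genes, list sums and library measures), 36 held a library far from the other 4. The measure was Dixon's ratio, the gap to the nearest library over the range, with a threshold of 0.71. That threshold flags about 1 in 20 only for independent, normally distributed values. List sums contain genes that were also taken singly, and normality was not tested, so 36 cannot be set against a chance rate. Of the 36 flags, 21 were SC 1, 6 B2, 3 A2, 3 B1, 2 SC 2 and 1 SC 4.

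SC 1 stood above the other cord libraries in the summed cpm of oligodendrocyte genes (6742 against 4499 to 4841), transmitter genes (4065 against 2474 to 2689), pan-neuronal genes (11684 against 9292 to 9878), neurotrophic receptors (798 against 700.1 to 711), central matrix genes (1402 against 1192 to 1253), blood-brain barrier genes (956 against 541 to 655) and adipocyte genes (3.95 against 0.185 to 0.858). It was below them for lymphocyte genes (2.12 against 3.20 to 3.61) and bone genes (3.31 against 7.13 to 7.79). Among single genes SC 1 was highest for Mobp (4752 cpm), Ina (737), Slc2a1 (681), Cspg5 (322), Tac1 (73.1), Lbx1 (29.9), Isl1 (4.31), Th (3.86) and Trpm8 (0.804), and lowest for Penk (76.96), Lamb1 (11.5) and Il31ra (0.0321). SC 2 was highest for Nppb (0.337 cpm) and lowest for Nmur2 (3.64), and SC 4 was highest for Krt14 (3.005).

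B2 had the highest share of counts on the 50 most abundant genes (13.6% against 11.96% to 12.2%) and the highest sum of neutrophil genes (25.1 cpm against 1.87 to 4.56), with S100a9 at 9.94 cpm. It was also highest for Slc1a2 (64.7 cpm) and Th (9.49) and lowest for the summed sensory neuron transcription factors (632 against 736 to 770.5). A2 was highest for the sum of pituitary genes (146 cpm against 14.1 to 29.7), with Gh at 96.3 and Prl at 36.3 cpm. B1 was highest for Slc6a5 (1.89 cpm) and Glra1 (0.594) and lowest for Scn2a (31.6).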

How the results depend on the processing

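The counts of calls, 5535 in all, 2647 higher in TG and 2888 higher in SC, stayed within 1.5 times under every alternative run except 2. A test against a 2-fold difference (glmTreat) called 3361 genes, 1593 higher in TG and 1768 higher in SC, since it asks for more than the fold cut used here. The anti-Gr1 libraries called 4979 higher in SC, and the cause was not tested. Leaving out each library in turn gave 5092 to 5814 calls, 2267 to 2816 higher in TG and 2639 to 3095 higher in SC, and 293 to 305 list members called in either direction. Leaving out B2 and SC 1 together, chosen after seeing the data, gave 6058 calls. With a replicate block, 4288 genes were called, 2057 higher in TG and 2231 higher in SC. The correlation of same-numbered libraries ranged from -0.0947 to 0.12, and that of other pairs from -0.0707 to 0.184. So few pairs cannot decide whether the numbers pair the tissues. The comparison of A with B libraries called 300 genes in DESeq2, and 0 to 154 when each library was left out, 154 without B2. Signs turned for some named genes that were called in the uninjected libraries, in the other vehicle libraries or in both. With the PBS libraries the log2 fold change was -0.48 for Gabra2, -1.24 for Hoxd11, 1.15 for Mgp, -0.38 for Krt10 and -1.33 for Krt1. With the anti-Gr1 libraries it was -0.11 for Col4a2, -0.39 for Krt10 and -1.93 for Krt1. Sign changes of genes called in neither comparison are not listed. Genes near the floor of 3 counts limit what depth can show.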

Other observations

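Genes of vessels, fat and bone and the prostaglandin synthase gene Ptgds were also measured. Of 7 general endothelial genes, 0 were called in either direction in edgeR's quasi-likelihood test, with a median log2 fold change of -0.48. In that test 4 had an unadjusted p below 0.05 and 2 an adjusted p below 0.05, but these stayed below 2-fold. For 3 of the 7, every SC library lay above every TG library. DESeq2 called 0. In the PBS libraries 1 of the 7 was called higher in SC, and in the anti-Gr1 libraries 4 of 7, with a median of -1.24. The summed level of the list was 55.8, 64.8, 57.2, 61.8 and 52.4 cpm in A1, A2, B1, B2 and B3 and 69.9, 64.4, 69.3, 80.3 and 79.6 cpm in SC 1 to SC 5. Of 4 adipocyte genes, edgeR and DESeq2 called 0, with 0 at an unadjusted p below 0.05, and all were below 5 cpm in each library. Of 3 bone genes, Ibsp was higher in TG (log2 fold change 2.83, adjusted p = 1.23e-05) and Dmp1 higher in SC (-2.61, adjusted p = 0.000123), and DESeq2 called all 3. Ptgds was at 218, 235, 261, 186 and 9.45 cpm in TG, where B3 was the lowest, and 703, 1697, 1996, 1409.8 and 1232 cpm in SC (log2 fold change -2.95 ± 0.58 (SE), adjusted p = 0.000997). In the PBS libraries the tissues overlapped, with Ptgds at 483, 364 and 215 cpm in TG and 544 and 338 cpm in SC. They also overlapped in the anti-Gr1 libraries, at 215 to 564 cpm in TG and 486 to 1221 cpm in SC.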
